A study of Mus musculus with 30 samples.

Results

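Regions with an H3K27ac peak in untreated CK1750 cells and in none of the other 3 groups of the study were collected from the deposited peak lists. Peaks of the 4 lists that overlapped or touched were merged on chromosomes 1 to 19 and X, which gave 37671 merged regions. A merged region was kept when it held a peak of CK1750 with DMSO and no peak of CK1750 UNC0638, Tnm2 DMSO or Tnm2 UNC0638. This left 3843 regions, or 10.2% of all merged regions and 15.8% of the 24261 with a CK1750 DMSO peak. The absence of a peak in the other lists and the score in CK1750 DMSO chose the regions, so both are given as descriptions.

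CK1750 and Tnm2 are mouse lung adenocarcinoma cell lines, the former described by the study as resembling tumour-propagating cells. Each was grown in the solvent DMSO, the untreated condition, or in 1 µM UNC0638, a chemical inhibitor of G9a and Glp, which methylate histones. Of the 9 H3K27ac samples 3 were CK1750 DMSO and 2 belonged to each other group, and the authors deposited 1 merged peak list per group. By their labels some are repeat runs of 1 replicate, so that CK1750 DMSO has 2 replicate numbers and CK1750 UNC0638 has 1. Each line stands for 1 tumour-derived culture, no list gives the spread between replicates, and read depth is unknown, so no difference between groups was tested.

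H3K27ac is an acetyl group that acetyltransferases such as p300 and CBP place on histone H3 at active promoters and enhancers. It is read by bromodomain proteins and removed by histone deacetylases. G9a and Glp methylate H3K9, a modification associated with silent chromatin, and silent chromatin is where much of the repeated sequence of mammalian genomes lies. The score of a peak is a logarithm of its P value from the authors' peak caller, scaled so that the cutoff stands at 50 and stronger peaks score higher, and it ranks peaks within a list only.

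The sequences below stand for the classes of region described afterwards. They were read from the GRCm38 (mm10) reference on the plus strand and shown 5′ to 3′. The first 3 belong to short, high-scoring regions that hold a run of tandem copies of GGAAT, and capitals mark GGAAT or its complement ATTCC.
chr1:44951109-44951400: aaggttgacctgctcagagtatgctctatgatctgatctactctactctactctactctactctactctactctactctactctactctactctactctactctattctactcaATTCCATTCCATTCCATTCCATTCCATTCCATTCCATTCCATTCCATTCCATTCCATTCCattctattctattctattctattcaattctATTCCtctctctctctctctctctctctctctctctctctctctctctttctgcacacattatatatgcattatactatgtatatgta
chr7:98059875-98060174: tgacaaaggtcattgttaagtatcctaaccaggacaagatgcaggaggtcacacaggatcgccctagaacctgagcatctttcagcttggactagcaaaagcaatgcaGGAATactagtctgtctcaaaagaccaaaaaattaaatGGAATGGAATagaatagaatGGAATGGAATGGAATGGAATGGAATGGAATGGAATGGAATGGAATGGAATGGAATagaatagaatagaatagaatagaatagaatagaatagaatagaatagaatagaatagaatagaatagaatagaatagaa
chr9:19575323-19575622: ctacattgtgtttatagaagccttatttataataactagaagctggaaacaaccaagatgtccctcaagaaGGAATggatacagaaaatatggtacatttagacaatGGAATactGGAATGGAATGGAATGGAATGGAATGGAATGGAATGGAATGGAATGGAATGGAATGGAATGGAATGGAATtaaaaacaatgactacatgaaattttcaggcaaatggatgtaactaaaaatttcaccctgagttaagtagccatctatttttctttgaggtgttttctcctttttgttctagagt
The next is a stretch of a wider region on chromosome 4 made almost wholly of A and G, with capitals at the few C and T.
chr4:101313555-101313754: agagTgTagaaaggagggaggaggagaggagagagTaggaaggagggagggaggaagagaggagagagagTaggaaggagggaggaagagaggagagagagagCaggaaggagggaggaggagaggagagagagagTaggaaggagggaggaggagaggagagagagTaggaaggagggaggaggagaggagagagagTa
The following 240 bases come from a region beside the pancreatic amylase genes and were identical in 4 such regions, and capitals would mark CpG, of which it has 0.
chr3:113276541-113276780: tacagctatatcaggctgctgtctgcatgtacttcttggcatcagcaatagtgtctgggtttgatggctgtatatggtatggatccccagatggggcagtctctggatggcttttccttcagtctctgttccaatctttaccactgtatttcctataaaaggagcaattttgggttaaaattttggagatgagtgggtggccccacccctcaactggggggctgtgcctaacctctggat
The last 2 are the centres of regions in introns of Ipmk and Pdgfrl that hold no repeated sequence, with CpG in capitals.
chr10:71364211-71364510: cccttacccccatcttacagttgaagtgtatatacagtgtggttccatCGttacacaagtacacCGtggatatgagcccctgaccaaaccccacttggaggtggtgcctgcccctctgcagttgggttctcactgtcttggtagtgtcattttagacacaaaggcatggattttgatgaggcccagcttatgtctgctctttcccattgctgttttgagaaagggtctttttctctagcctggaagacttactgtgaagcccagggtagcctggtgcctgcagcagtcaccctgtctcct
chr8:40963408-40963707: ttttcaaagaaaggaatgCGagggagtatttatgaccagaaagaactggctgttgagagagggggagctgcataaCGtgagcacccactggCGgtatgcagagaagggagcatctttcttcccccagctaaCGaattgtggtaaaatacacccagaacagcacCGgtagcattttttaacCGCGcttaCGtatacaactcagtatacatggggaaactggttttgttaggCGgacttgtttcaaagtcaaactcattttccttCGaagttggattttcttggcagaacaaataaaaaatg

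Most of the 3843 regions were weak and narrow. Their scores ran from 50.04 to 593 with a median of 62.1, and 1712 of them lay under 60. The median width was 500 bp, and together they covered 2.14 Mb. A score of at least 100 was reached by 401 regions, 2.52% of the 15884 CK1750 DMSO regions at that score, and a score of at least 200 by 50. The members just above 100 scored 100.11 (chr10:74833284-74833956), 100.17 (an intron of Shb) and 100.3 (chr2:33833267-33833793). Those just below scored 99.66 (chrX:170843504-170844940), 99.53 (an exon of A230108P19Rik, near Usp6nl) and 99.48 (chr16:35742243-35742998), so the limit separated neighbours of nearly equal score.

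Membership fell steeply with score, which the selection used. Of the CK1750 DMSO regions scored 50 to 100, 41.1% were found only there. The share was 7.55% at scores of 100 to 200 and 0.987% at 200 to 500, and 1 of 6266 regions at 500 or more qualified. At a given score the peaks were slightly narrower than other CK1750 DMSO peaks, with median widths of 457 against 477 bp at scores of 50 to 60 and 757 against 812 bp at 100 to 200.

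The regions lay in repeated sequence more often than their counterparts. A region was counted as repeated when at least 50% of its 38-base windows occurred more than once in the genome, a property the selection did not use. The length follows the reads of the study's methods, while the labels give 75 bases, and windows of 75 bases are given beside it. By this measure 509 of the 3843 regions were repeated, or 13.2% (Wilson 95% interval 12.2 to 14.4%, counting error only). The share was 2.18% of the 20418 other CK1750 DMSO regions and 1.46% of those scored under 100. Among regions found only in CK1750 with UNC0638 it was 1.41%, and among those found only in Tnm2 with DMSO it was 1.24%. Regions found only in CK1750 but with both treatments came to 3.44%. Shares were higher in other CK1750 DMSO regions that lacked a CK1750 UNC0638 peak. They were 7.25% (81 of 1118) where only Tnm2 DMSO also had a peak, 5.58% where both Tnm2 lists had 1, and 4.44% where only Tnm2 UNC0638 did. With 75-base windows, a measure chosen after seeing the data, the shares were 9.68% of the regions (372), 1.58% of other CK1750 DMSO regions, 0.539% of those found only in CK1750 with UNC0638 and 0.580% of those found only in Tnm2 with DMSO, and 68.0% of the regions scored at least 200.

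The difference in the share of repeated sequence widened with score. Repeated sequence made up 11.6% of the regions scored 50 to 100, against 1.46% of other CK1750 DMSO regions of that class. At 100 to 200 the shares were 21.4% and 2.47%. At 200 or more they were 72.0% (36 of 50, interval 58.3 to 82.5%) and 2.40%. Read the other way, repeated CK1750 DMSO regions were found only there in 84.7% of cases at scores of 50 to 100, 41.4% at 100 to 200 and 20.6% at 200 to 500, whereas 38.5%, 6.17% and 0.271% of single-copy regions were. This gap narrowed in points with score. At 500 or more, 0 of 129 repeated and 1 of 6137 single-copy regions were found only there. Single-copy here means only that under 50% of windows were repeated, and it takes in 15 of the 16 members with tandem GGAAT units. The 1 member at 500 or more was among these, with 44.7% repeated windows. A near-identical copy elsewhere (80% of the region covered at 95% identity) was found for 9.06% of the regions, 19.95% of those scored at least 100 and 64% of those scored at least 200, against 1.85% of other CK1750 DMSO regions.

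**Figure D1:**
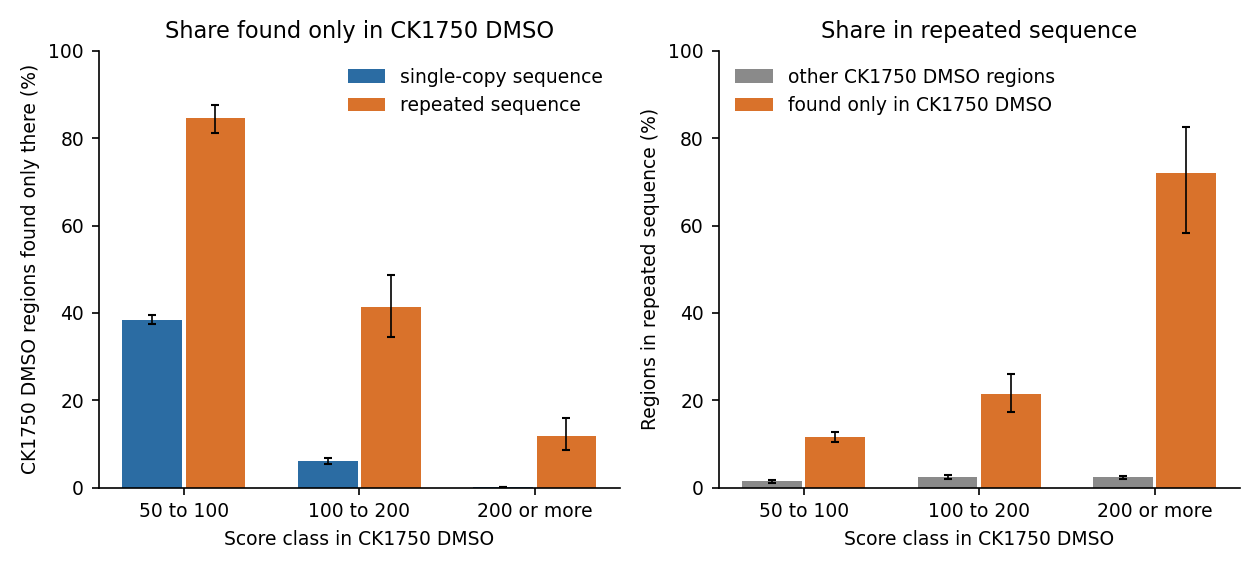
Left, share of CK1750 DMSO regions found only there (%, y axis) by score class (x axis), for single-copy and repeated sequence; right, share of regions in repeated sequence (%) by score class, for regions found only in CK1750 DMSO and for other CK1750 DMSO regions. Bars are shares and lines Wilson 95% intervals; at 200 or more, 72.0% of the regions found only in CK1750 DMSO were repeated against 2.40% of the others.

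Of the 1128 merged regions in repeated sequence, 955 held a CK1750 DMSO peak, 476 a Tnm2 DMSO peak, 376 a CK1750 UNC0638 peak and 262 a Tnm2 UNC0638 peak. The 955 include the 509 members, which were chosen for that peak, and 446 remain without them. The CK1750 DMSO list held 24261 merged regions in all and the Tnm2 DMSO list 27684. How the aligner placed reads with several equal positions, and which control was used, are not stated for the lists, and their part in these counts was not tested.

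All of the 20 regions with the highest scores held at least some repeated windows. Their scores ran from 291 to 593, 15 were repeated by the measure above, and the other 5 held a run of 6 to 14 tandem GGAAT units. Near-identical copies were found for 14, and only 1, at the long noncoding gene Gm15801 in an intron of Aldh18a1 (chr19:40561332-40561788, score 299), lay at a promoter. None of the 20 held the AP-1 letters TGANTCA in its central 300 bases. Of other CK1750 DMSO regions scored at least 200, 9.02% held them, a share at which few of 20 would.

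**Figure D2:**
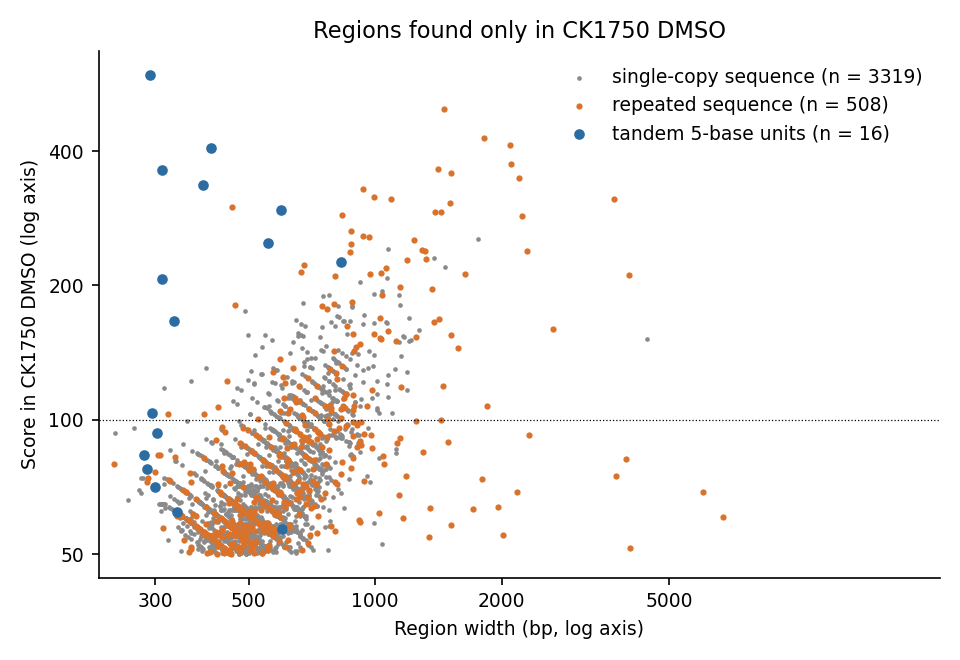
Score in CK1750 DMSO (y axis, log scale) against width in bp (x axis, log scale) for the 3843 regions found only there, coloured by single-copy sequence, repeated sequence and tandem 5-base (GGAAT) units. The dotted line marks a score of 100; the GGAAT regions stand at the left, with a median width of 322 bp and scores up to 593.

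Tandem GGAAT units recurred among the regions, most of them short. Runs of at least 4 units were present in 16 of the 3843 regions (0.416%), of which 10 scored at least 100 and 8 at least 200. Their median width was 322 bp and their median score 187. The same runs were present in 7 of 20418 other CK1750 DMSO regions (0.0343%) and in 0 of 2412 regions found only in CK1750 with UNC0638 and 0 of 6556 found only in Tnm2 with DMSO. The same unit builds satellite arrays near the centromeres of human chromosomes.

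The highest score of all the members, 593, belonged to the first printed sequence, chr1:44951109-44951400. Its 12 units lay 26.2 kb from Gm3496, and the nearest peak of any other list was 803 kb away. The region in an intron of Myo7a, an unconventional myosin of sensory hair cells, held 11 units and scored 406 (chr7:98059822-98060228). The region 6.99 kb from the olfactory receptor gene Olfr855 held 14 units and scored 363 (chr9:19575317-19575628). The others above 200 were chr10:83954359-83954747 (336), chr14:104336541-104337136 (296), chr14:107074931-107075485 (249), chr6:125876531-125877358 (226) and chr13:27205954-27206265 (207). The lowest, chr3:145690671-145691269, scored 57.0 with 10 units, so scores varied widely at like numbers of units.

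All 23 merged regions with such runs held a CK1750 DMSO peak, beside 5 with a Tnm2 DMSO peak, 4 with a CK1750 UNC0638 peak and 1 with a Tnm2 UNC0638 peak. The 16 members among them were chosen for the CK1750 DMSO peak, and the other 7 were not. At chr17:4625888-4626824 the scores were 3100 for CK1750 DMSO, 339 for CK1750 UNC0638, 368 for Tnm2 DMSO and 170 for Tnm2 UNC0638. In an intron of Dpp9, a dipeptidyl peptidase gene (chr17:56199895-56200348), the first 3 of these were 733, 98.3 and 71.2, with no Tnm2 UNC0638 peak. Scores depend on the depth of each list, so these values are set side by side without a comparison.

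The genome itself held 40 loci with runs of at least 4 units, with a longest run of 15. Runs of at least 10 units carried a CK1750 DMSO peak at 12 of 13 loci (92.3%, interval 66.7 to 98.6%), a CK1750 UNC0638 peak at 3, a Tnm2 DMSO peak at 3 and a Tnm2 UNC0638 peak at 0. Runs of 8 or 9 units carried a CK1750 DMSO peak at 8 of 15 loci, runs of 6 or 7 at 3 of 5, and runs of 4 or 5 at 0 of 7. The shortest runs thus carried no such peak and nearly all of the longest did, with the classes between them in the middle.

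Other repeated regions fell into groups that shared sequence at 90% identity. There were 26 groups with at least 3 members, which together held 243 of the 509 repeated regions, and in 10 of them all members lay on 1 chromosome. The groups are numbered by size and not named, since no repeat annotation was used. The largest, family 1, had 69 members among 131 merged regions on 17 chromosomes, with 96.9% of the median member soft-masked as repeat in the reference. A CK1750 DMSO peak was present in 126 of its 131 regions, a Tnm2 DMSO peak in 52, a CK1750 UNC0638 peak in 34 and a Tnm2 UNC0638 peak in 16. Its members scored 50.05 to 498 with a median of 86.8.

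The highest member of family 1 lay 9.56 kb from a start site of Ube4b, a ubiquitin ligase gene (chr4:149436307-149437767, score 498, 30 copies). Others were in an intron of Rbbp8, which encodes the DNA end-resection factor CtIP (score 427, 12 copies), 4.43 kb from the interferon-induced gene Oasl2 (358, 32 copies), and in an intron of Ankrd12 (292, 10 copies). None of these 4 had a peak of another list within 7 kb. Short reads from near-identical copies may be placed at any of them, so which copy carried the mark is uncertain.

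Family 2 had 29 members among 30 merged regions on 15 chromosomes, of which 30 held a CK1750 DMSO peak, 1 a CK1750 UNC0638 peak and 0 a Tnm2 peak. The highest score, 219, lay near Zbtb24, a zinc-finger gene that is mutated in an immunodeficiency with centromeric instability (chr10:41440013-41441070). Family 5 had 12 members among 12 regions, with no peak of another list. Groups were kept for holding at least 3 members, so part of this one-sidedness was fixed by the choice. Family 3 had 21 members among 63 regions, of which 63 held a CK1750 DMSO peak, 40 a CK1750 UNC0638 peak, 23 a Tnm2 DMSO peak and 4 a Tnm2 UNC0638 peak. Its highest member was in an intron of Abr (chr11:76549374-76550307, score 330, 56 copies). Members in an intron of Miga1 (score 313) and near Gm44475 (score 315) each had 57 copies.

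Family 4 differed in place, since 13 of its 15 members lay at promoters on chromosome 2. Of its 38 merged regions 37 held a CK1750 DMSO peak, 19 a CK1750 UNC0638 peak, 15 a Tnm2 DMSO peak and 9 a Tnm2 UNC0638 peak. The genes there are a block of duplicated zinc-finger genes, among them Gm4631, Gm4724 and 2210418O10Rik, and the highest scores were 239 near Gm11007 and 238 at the promoter of 2210418O10Rik (chr2:176226551-176227422, 19 copies).

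**Figure D3:**
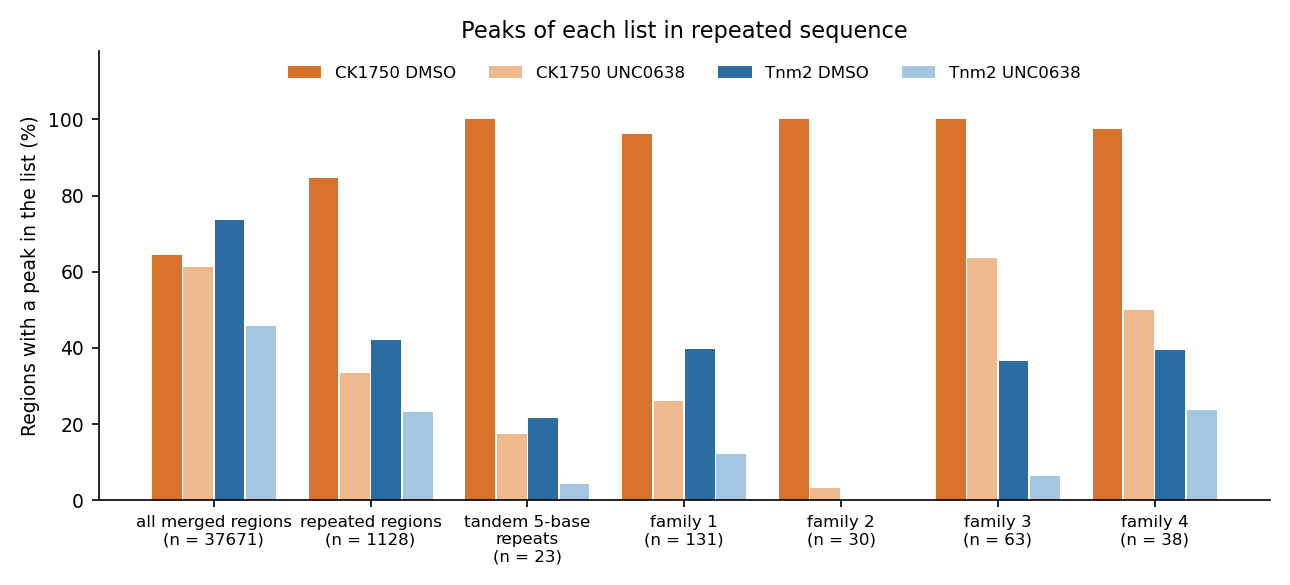
Share of merged regions with a peak in each of the 4 lists (%, y axis), for all merged regions, regions in repeated sequence, regions with tandem 5-base (GGAAT) units and the 4 largest families of shared sequence (x axis, number of regions under each name). Bars are shares without replicates; the families were chosen for holding regions found only in CK1750 DMSO, so the height of their CK1750 DMSO bars is partly fixed by that choice, while over all merged regions the Tnm2 DMSO bar is the highest.

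A further region among the 20 highest was repetitive in another way. It lay in an intron of Gm12796 near Jak1, the Janus kinase gene (chr4:101312608-101314702, score 413), and was soft-masked over its whole length, and 95.8% of its bases were A or G. It had 0 copies by the alignment measure, while 56.0% of its windows recurred in the genome. Its nearest peak of another list was 4.61 kb away.

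Adjacent members formed 63 runs of at least 3 consecutive merged regions, which held 221 members or 5.75% of them. At least 5 members were in 8 runs, and 7 of these 8 consisted mostly of repeated regions, whereas 40 of the 63 runs held no repeated member. Runs were defined by order and not by distance, and their median span was 81.5 kb.

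The longest run lay over the pancreatic amylase genes, which encode the starch-digesting enzyme of the exocrine pancreas. It had 11 members in 131 kb (chr3:113244786-113375862) beside Amy2a5, Amy2a4, Amy2a3 and Amy2a2. In order along the chromosome their scores were 72.3, 190, 90.8, 365, 79.5, 57.8, 291, 95.4, 68.8, 306 and 88.1. The pattern was a strong wide region followed by a weaker narrow one, recurring along the run. The 4 strong regions (190, 365, 291 and 306) began 32.3, 32.5 and 32.6 kb apart, and 14.2 to 16.9 kb from the nearest amylase start sites.

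The strong regions are copies of each other. Aligned in pairs, the shorter inside the longer, they had identities of 94.8 to 100%, with the bases at which 1 region reached beyond the other counted as differences. The 4 narrow regions beside them had 95.03 to 100%. Within 20 kb of Amy2a5, Amy2a4, Amy2a3 and Amy2a2 there were 4, 4, 5 and 5 CK1750 DMSO peaks, 0 Tnm2 peaks with either treatment, and 1 peak of CK1750 with UNC0638. That peak, at Amy2a5 (score 96.2), overlapped a further CK1750 DMSO peak, scored 213, that ended just before the run. Each strong region had 4 near-identical copies on the chromosome, more than the other strong regions number. Whether the peak before the run lies in a further copy was not tested. Short reads from such copies may be placed at any of them, so which copy carried the mark is uncertain. Amy2a1 and the salivary gene Amy1, farther along the chromosome, had 0 peaks of any list within 20 kb. None of the 11 regions lay at an amylase promoter, and lung cells are not a site of pancreatic amylase production.

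**Figure D4:**
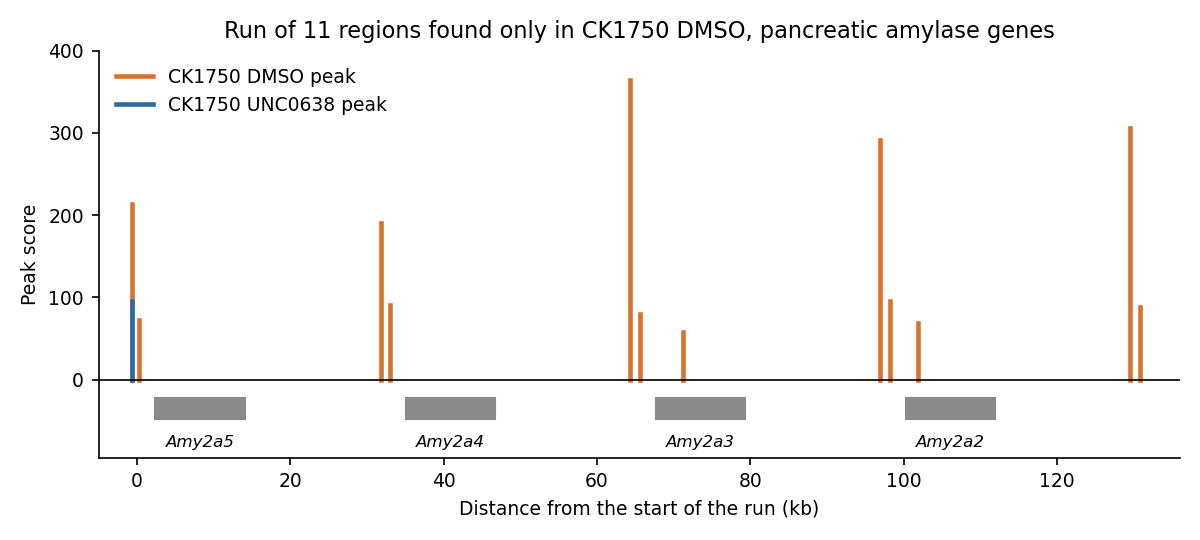
Peaks over the pancreatic amylase genes, as peak score (y axis) against distance in kb from the start of the run of 11 regions (x axis), with gene bodies as grey boxes. Vertical lines stand at peak centres with heights equal to their scores; the CK1750 UNC0638 peak (96.2) is drawn over the CK1750 DMSO peak (213) that it overlaps, Tnm2 had 0 peaks there, and the 4 strongest members recur at spacings of 32.3 to 32.6 kb.

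The 4 runs next in length, with ties settled by summed score, were all in repeated sequence. On chromosome X a run of 7 members spanned 15.5 kb near Gm15068 (chrX:170841705-170857162, highest score 166), with no peak of another list within 30 kb. Another on X joined 5 members over 9045 kb (chrX:24798443-33843673, highest 253) in a stretch of multicopy genes such as the Btbd35f family. On chromosome 8 a run of 6 spanned 161 kb (chr8:20129281-20290474, highest 348). On chromosome 2 a run of 5 lay at the promoters of Gm4631 and Gm4724 (chr2:175336844-175435852, highest 131).

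Runs without repeated members were weaker, and they were singled out after their values were seen. The longest had 5 members over 778 kb (chr5:22609066-23387247, highest score 106), of which 3 lay in 6030443J06Rik, 1 in an intron of Lhfpl3 and 1 in 5031425E22Rik. The 4 regions near Pkp4, which encodes plakophilin 4 of cell junctions, lay within 31.7 kb and scored 150, 68.8, 166 and 120 (chr2:59364797-59396500). The 4 with Ankrd1, a target gene of YAP and TEAD, as nearest protein-coding gene scored 53.1, 62.1, 92.2 and 134 (chr19:36131548-36208299), and the first of them lay 0.693 kb from a peak of another list. A run of 4 near Racgap1, a cytokinesis gene, spanned 5.03 kb with a highest score of 80.4. Runs of 3 were present at Socs2, an inhibitor of cytokine signalling (highest 139), Sox11, a transcription factor of neural development (165), Cd44, an adhesion receptor (71.3), and Notch2 (65.7).

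Most regions were nonetheless in single-copy sequence, 3334 of the 3843, and 2404 (62.6%) held no repeated window at all. That share was 63.5% of all merged regions, which were wider (median 957 bp). It was 73.7% of regions found only in CK1750 with UNC0638 and 77.6% of those found only in Tnm2 with DMSO. The highest member without a repeated window was in an intron of Ipmk, an inositol phosphate kinase gene (chr10:71363483-71365238, score 254). Such members were chosen after values were seen, and the centre of this one is printed above. The next were the promoter of Cyp1b1, a cytochrome P450 under control of the aryl hydrocarbon receptor (chr17:79713060-79714129, 242), a region between genes whose nearest protein-coding start site is that of Dmrta1 (chr4:89526763-89528139, 231), an intron of Pdgfrl (chr8:40962827-40964289, 220) and an exon of Prr7 (chr13:55471596-55472514, 204). The nearest peaks of other lists were 14.6, 16.6, 1.70, 34.7 and 14.8 kb away.

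The regions lay at promoters less often than other CK1750 DMSO regions. Within 1 kb of an annotated transcription start site (TSS) lay 771 of 3843, or 20.1% (interval 18.8 to 21.4%). The share was 55.1% of other CK1750 DMSO regions and 27.5% of those scored under 100. It was 18.9% of regions found only in CK1750 with UNC0638, 15.7% of those found only in Tnm2 with DMSO and 32.3% of CK1750-only regions present with both treatments. Single-copy members alone gave 20.3%. Introns held 55.1% of the members, exons 10.0% and stretches between genes 34.9%. In the same order, all merged regions gave 50.9, 19.5 and 29.6%, and regions found only in Tnm2 with DMSO gave 56.9, 8.59 and 34.5%.

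Promoters among the regions were less rich in GC than other promoters with a CK1750 DMSO peak. The median GC content of their central 300 bases was 55.3% with 10 CpG, against 63.3% with 22 CpG at other CK1750 DMSO promoters and 57.0% with 11 CpG at those scored under 100. Members away from promoters had a median of 50.3% with 3 CpG.

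A promoter peak in CK1750 DMSO alone was found for 275 protein-coding genes, 2.58% of the 10658 with a CK1750 DMSO promoter peak. A member supplied it for 271, and it scored at least 100 for 59, with a median of 73.5 over all. Cyp1b1 had the highest score, 242. Fcgr3, an Fc receptor gene of myeloid cells in a segment of duplicated sequence, scored 229. Pola1, the catalytic subunit of DNA polymerase alpha, scored 181 (chrX:93631578-93632725), and its nearest peak of another list was 488 kb away. Other single-copy promoters were Hint2, a mitochondrial nucleotide hydrolase (179), Gpkow (172), the transcription factor Runx3 (167), the calcium channel subunit Cacnb4 (155), the arginine methyltransferase Prmt5 (154), the mitotic kinesin Kif20b (150), the neurotrophic factor Gdnf (141), Socs2 (139) and Sema4d (131). Of the 275 genes, 244 had a member in single-copy sequence there and 27 one in repeated sequence.

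Promoter regions of protein-coding genes outside this group belonged, by its definition, to genes with a promoter peak in another list. Of the 603 promoter regions at protein-coding genes, 330 belonged to a gene with a promoter peak also in another list, 300 of them in CK1750 with UNC0638. An example was Mepce, which encodes a capping enzyme of a small nuclear RNA (score 192), where a peak of another list lay 15 bp away.

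Away from promoters, the genes next to the regions mostly kept a promoter peak with UNC0638, as did the genes next to compared regions. Of the 3072 such regions, the nearest protein-coding gene had a promoter peak in the CK1750 DMSO list for 75.6%, the CK1750 UNC0638 list for 74.9%, the Tnm2 DMSO list for 72.9% and the Tnm2 UNC0638 list for 63.2%. In the same order, other CK1750 DMSO regions scored under 100 gave 78.3, 78.4, 77.6 and 67.6%. Regions found only in Tnm2 with DMSO gave 76.5, 75.0, 77.7 and 68.3%, so these shares are not particular to the members. For the 2658 members in single-copy sequence, both CK1750 lists had that promoter peak in 76.3%, and the DMSO list alone had it in 2.11% (56 regions).

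Many regions lay beside a peak that another list did have. The nearest peak of another list was within 1 kb for 27.01% (1038 regions), within 100 bp for 209, and 1 bp away at the closest, while 8.12% had none within 100 kb. A CK1750 UNC0638 peak lay within 1 kb of 20.6% and within 10 kb of 51.6%. For regions found only in Tnm2 with DMSO these shares were 17.1% and 52.7%, so the nearness is not particular to the members. Repeated members stood farther from other peaks, with 11.8% within 1 kb of another list against 29.3% of single-copy members. Whether a neighbouring pair of peaks belonged to 1 marked stretch cannot be told from the lists.

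Chromosomes differed in how many of their CK1750 DMSO regions were found only there. The share was highest on X at 21.3% (interval 18.1 to 24.9%), followed by chromosomes 13 (19.5%), 3 (19.2%) and 10 (18.7%), and lowest on chromosome 11 at 12.6% (11.1 to 14.2%). In single-copy sequence the value for X was 17.3% and that for chromosome 11 was 11.5%, and X no longer stood highest. X held 3.15% of the members, against 1.16% of regions found only in CK1750 with UNC0638 and 1.13% of those found only in Tnm2 with DMSO. Of all 24261 CK1750 DMSO regions 568 lay on X, and of the 3334 single-copy members 86 did. The selection used these lists, so the chromosome shares are descriptions.

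**Figure D5:**
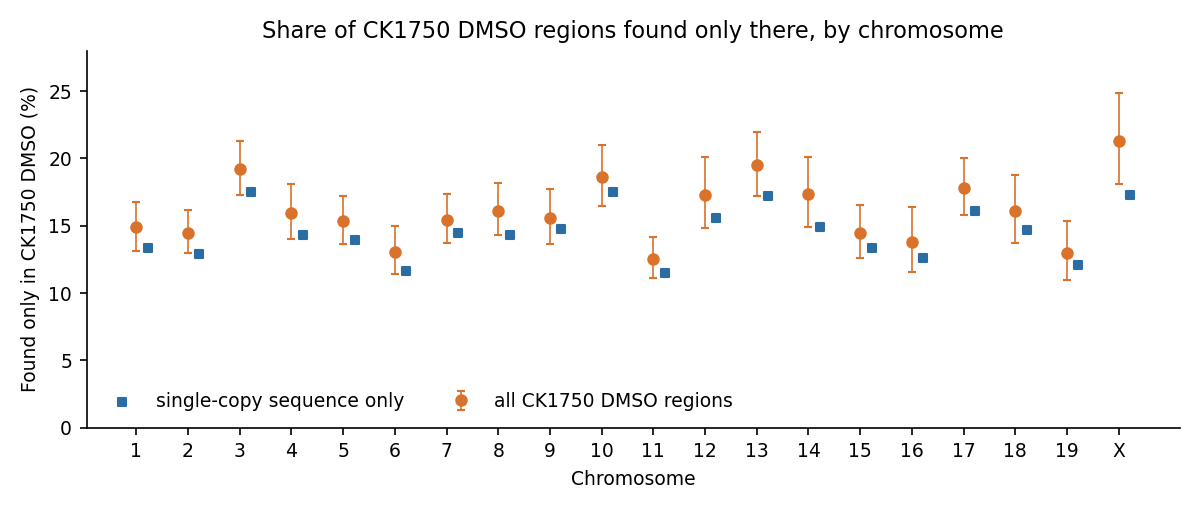
Share of CK1750 DMSO regions found only there (%, y axis) for each chromosome (x axis), over all regions (circles with Wilson 95% intervals) and over single-copy sequence only (squares). X has the highest circle at 21.3% and drops to 17.3% in single-copy sequence; every square lies below its circle.

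Sequence letters bound by transcription factors were compared between the regions and all merged regions. Letters were searched on both strands of the central 300 bases. The AP-1 letters TGANTCA, bound by Fos and Jun proteins, were in 11.4% of the regions and 11.8% of all merged regions. Away from promoters the shares were 12.2% and 15.2%, with 13.3% in single-copy members and 15.7% in other CK1750 DMSO regions scored under 100. Regions found only in CK1750 with UNC0638 and those found only in Tnm2 with DMSO each gave 13.5% there. CK1750-only regions present with both treatments gave 15.3%. Repeated members had them in 6.48%. They were in 0 of the 50 regions scored at least 200, against 9.02% of other CK1750 DMSO regions at that score. The TEAD letters GGAATG were in 16.4% against 15.7%, and they overlap tandem GGAAT units. The C/EBP, FOXA and GATA letters were in 9.89, 4.03 and 3.51% against 9.46, 4.16 and 3.52%. The GC box (GGGCGG) was in 11.3% against 21.9% and the ETS letters CCGGAAG were in 2.26% against 5.03%, but away from promoters these shares were 6.41% against 7.18% and 1.92% against 2.06%.

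By genes, 5625 of 21755 protein-coding genes (25.9%) had a member within 50 kb, and 822 (3.78%) had one scored at least 100. The numbers below are read against these shares, and gene length differs between the lists, so no list is called particular. The genes with the most members were Gm20388 (21, over 4.43 Mb), Amy2a3 (9), Amy2a2 (8), the neuron navigator gene Nav2 (8) and Amy2a4 (7).

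Transcription factors of the airway and alveolar epithelium had a member within 50 kb at 13 of 24 genes, and at 0 with a score of at least 100. The highest near Nkx2-1, the lung lineage factor, scored 79.4, near Cebpa 84.4, near Etv5 93.6, and near Hnf4a, a factor of gastric and intestinal epithelium, 65.9 among 3 members. Of 16 genes of epithelial state 9 had a member, and 3 had one at 100 or more. Spint1, an inhibitor of membrane serine proteases, had one at 164, and the neighbouring keratin genes Krt8 and Krt18 shared 1 region at 150. Near Cdh1, which encodes E-cadherin, the highest scored 69.2. Of 12 genes of mesenchymal state 5 had a member, the highest near Twist2 (125).

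Lists of signalling and transport genes were near the 3.78% background for strong regions, with 0 or 1 gene each. The AP-1 family had members at 6 of 12 genes, with Junb at 110 in the adjoining Rnaseh2a. Feedback and output genes of the MAPK pathway had them at 9 of 20, with Phlda1 at 117. The Wnt pathway had 8 of 21, with 0 at 100 or more. The TGF-β pathway had 7 of 15, with Tgfb2 at 102 in a region with 87.5% repeated windows. Lipoprotein and lipid transport genes had 5 of 17, with 0 at 100 or more.

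Among extracellular matrix and protease genes 9 of 24 had a member. The highest was in an intron of Ctse, which encodes the gastric protease cathepsin E (chr1:131643010-131643982, score 213), and 95.4% of its windows were repeated, with 48 copies. Sparc, a matrix glycoprotein, had one at 114. Of 8 surface markers of tumour-propagating cells 5 had members. Cd9, a tetraspanin, had 6, the highest at 119 with 70.9% repeated windows. Ly6a (Sca-1) had 4, Prom1 and Cd44 had 3 each and Itga6 had 2. Of 16 H3K9 methyltransferase and demethylase genes 4 had members, near Jmjd1c (97.2), Ehmt2, the gene of G9a (88.8), Wiz, a partner of G9a (77.7), and Kdm4a (56.4), with 0 at 100 or more.

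Some marker genes of lung epithelium had a promoter peak in each list. Of 8 marker genes of lung epithelium, 5 had a promoter peak for CK1750 DMSO, 4 for CK1750 UNC0638, 4 for Tnm2 DMSO and 5 for Tnm2 UNC0638. Epcam and Sftpc had none in any list. For CK1750 DMSO, 10658 of all 21755 protein-coding genes had a promoter peak, so the epithelial counts are not far from the share of all genes. Of 4 endothelial and 5 leukocyte markers, 0 had one in any list, and of 5 fibroblast markers 1 had one in each list but that of Tnm2 with UNC0638.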

How the data were processed

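The authors sequenced chromatin immunoprecipitated for H3K27ac from CK1750 and Tnm2 cells grown in DMSO or UNC0638. Per the methods, bowtie2 mapped the reads to mm10 and MACS 1.4.2 called the peaks, with a P cutoff of 1e-05 (the submitters' processing notes also name SAMtools). The deposited score is the negative log10 of the authors' P value times 10, so that 50 is the cutoff, and it was used to rank and filter within a list only. Which libraries entered each of the 4 lists, and whether input DNA was the control, are not given in the sources used here. Scores and list lengths grow with depth, which is unknown. A peak just below the cutoff is absent from a list, so a region found in 1 list alone can differ little from one found in several. The other 21 of 30 samples (H3K9me2 and input DNA) were not used here.

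Peaks were merged and annotated with GENCODE release M 21 (promoter: within 1 kb of a TSS). Copies came from minimap2 2.31 alignments to GRCm38, and repeated windows from counts of all 38-base words of the genome on both strands (the read length in the methods, with 75 bases, as the labels have it, as an alternative). Pairwise identity came from edlib 1.3.9.post1. Python 3.11.15, numpy 2.4.6, pandas 2.3.3, scipy 1.17.1 and pysam 0.24.0 were used. On simulated lists, 4000 of 4000 merged regions and 307 of 307 members were recovered. With 1 list per group no test was run, and shares carry Wilson 95% intervals.

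The members, gene lists and alternatives were chosen with earlier results of these data known. Named regions were the 20 with the highest scores, the 3 highest each at promoters, in introns and between genes, the 5 longest runs, and the 3 on each side of a score of 100. Named genes were those at these regions, the 5 with the most members within 50 kb, and list genes with a member of at least 100. The GGAAT regions, the families, regions without a repeated window, runs without repeated members, the list of genes with a promoter peak in CK1750 DMSO alone, list genes with weaker members and most of the printed sequences were chosen after values were seen.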

Additional observations from a re-analysis of the deposited data

Results flagged for a closer look

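On 4 of 9 measures, regions found in 1 list alone differed between UNC0638 and DMSO in opposite directions in the CK1750 and Tnm2 lines. None of these differences was tested, since each group has 1 list. The share in repeated sequence was lower by 11.8 percentage points with UNC0638 in CK1750 (a difference of -11.8, from 13.2% to 1.41%) and higher by 1.31 in Tnm2 (1.24% to 2.55%). The share with a near-identical copy differed by -7.98 points in CK1750 (9.06% to 1.08%) and by 0.754 in Tnm2 (1.05% to 1.81%). The promoter share differed by -1.20 points in CK1750 (20.1% to 18.9%) and by 1.11 in Tnm2 (15.7% to 16.8%). The median GC content differed by -1.0 points in CK1750 (51.0% to 50%) and by 0.667 in Tnm2 (49.7% to 50.3%).

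Outside the chromosomes used above, 15 further regions had a peak in CK1750 with DMSO and in no other list. Of these, 12 lay on chromosome Y, with a highest score of 255, and 3 on unplaced or unlocalized sequences.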

How the results depend on the processing

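No paired analysis was possible because each list pools its group's libraries, and for the same reason no replicate could be left out. The number of regions, 3843, was 1303 with only peaks scored at least 100 in all lists, 1427 with 18789 highest-scoring peaks of each list, 1540 with no peak of another list within 10 kb and 6812 when only a reciprocal overlap of 50% counted as shared. The 401 regions scored at least 100 became 1303, 948, 208 and 1291 under these. Counts under a 1 kb rule, 1 kb merging, all sequences or single-copy sequence stayed within 1.5 times. The promoter share was 29.4% with a 2.5 kb window, 15.7% with protein-coding TSSs and 27.2% at scores of at least 100. Median GC was 49.5% over whole regions, 52.0% at scores of at least 100 and 50.3% away from promoters. The share with a near-identical copy was 10.0% with 50% cover and also with 90% identity, 19.95% at scores of at least 100 and 13.2% by repeated windows. The 63 runs became 41 with neighbours within 100 kb, 15 with at least 4 members and 9 with peaks of at least 100. The share within 10 kb of a region kept with UNC0638 was 41.9% at scores of at least 100 and 40.4% against kept regions of at least 100. AP-1 letters were in 23.4% of 600-base windows and in 10.2% at scores of at least 100. Genes with a member numbered 2765 at 10 kb, and 822 counting only members scored 100 or more.

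Further alternatives were chosen after seeing the data. Repeated sequence as at least 25% or 75% of windows made up 18.9% and 9.71% of the regions, 9.68% with 75-base windows, 27.7% at scores of at least 100 and 16.01% with no other peak within 1 kb. With repeated sequence left out, the shares found only in CK1750 DMSO were 38.5%, 6.17% and 0.271% at scores of 50 to 100, 100 to 200 and 200 to 500, 40 runs remained free of repeats, 54.4% lay within 10 kb of a kept region, and chromosomes 2, 13 and X gave 12.9%, 17.2% and 17.3%. Of the 20 highest regions, 14 were still found only in CK1750 DMSO under the 10 kb rule and 19 with 1 kb merging. With repeated sequence left out 5 stayed, all of them with tandem GGAAT units. The cause of these shifts was not tested. Depth is unknown, and 1712 of 3843 regions scored under 60, close to the cutoff of 50.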
